A study of Homo sapiens with 12 samples.

Results

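The comparison described here is that of MDA-MB-231 cells treated with 0.005 µM Paclitaxel with untreated cells of the same day. It rests on 4 of the 12 RNA samples of the series, namely 2 treated samples and the 2 untreated day 4 samples named C2. They were chosen by their labels, with earlier results of these data known. MDA-MB-231 is a triple negative breast cancer cell line, given as WT genotype in the labels, and the cells used here carried a nuclear GFP introduced by histone transfection. Both groups were grown as droplets of cells in Matrigel, a basement membrane gel, on glass-bottom plates, and all 4 samples were collected on day 4. The treated cells received Paclitaxel on day 2 according to the labels, whereas the study's imaging experiments describe a later day, and C2 received no treatment. The other 8 samples are untreated cells of day 2 (C1) and cells given 0.0005, 0.05 or 0.5 µM on the same schedule, with 2 samples for each condition. The samples of a condition are biological replicates of 1 cell line, so the p-values measure the spread between cultures of that line.

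Paclitaxel binds the beta subunit of tubulin inside the microtubule lattice and stabilises microtubules against disassembly. Cells that enter mitosis with stabilised microtubules build abnormal spindles and are delayed or divide unevenly, whereas cells between divisions still lose the microtubule turnover that supports transport, polarity and movement. MDA-MB-231 is a mesenchymal-like, invasive line with mutated p53 and active RAS signalling, and it is widely used to study migration and matrix degradation.

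Expression was measured as read counts per gene and is given below as CPM, the counts of a gene per 1000000 counts of its library, scaled by the trimmed mean of M values (TMM), which corrects for differences in composition between libraries. The total count was 61914740 and 53851006 in the C2 samples and 78902944 and 76559040 in the treated samples, and it ranged from 38380629 to 79169121 over the series. All 12 libraries entered 1 edgeR quasi-likelihood fit, in which 25249 genes were tested. A gene is said to be called, or to have risen or fallen, when its Benjamini-Hochberg adjusted p in that fit was below 0.05. On the first principal component, which held 42.7% of the variance, the treated samples lay at 14.4 and 14.2 and the C2 samples at -25.6 and -10.0, so the treated samples lay closer together than the C2 samples. Both C1 samples stood apart from all other libraries, C1 replicate 1 on the first component, at -47.8, and C1 replicate 2 on the second, at -41.3. The smallest p that exact permutation allows here for any gene on its own is 0.333, so the adjusted p-values below depend on the spread shared across the 6 conditions. The labelled cell type was checked against its markers, as CPM of the total count without TMM scaling. The summed level of 8 mesenchymal-like markers, VIM, CD44 and AXL among them, was between 3663 and 4569 CPM in the 4 samples, with the lower values in the treated samples. The sum of 9 luminal epithelial markers was 913 and 812 CPM in C2 and 1026 and 1074 CPM after treatment, nearly all of it from KRT8, KRT18, KRT19 and AGR2, while CDH1, the epithelial cadherin, did not exceed 0.216 CPM. The part of these opposite shifts in the results was not tested. Of the receptors that define the triple negative class, ESR1 was between 0.226 and 0.494 CPM, PGR was at 0 in both C2 samples and at most at 0.0914 CPM in the treated samples, and ERBB2 was between 29.3 and 40.8 CPM.

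At 0.005 µM the transcriptome differed from C2 in 827 genes, or 3.28% of those tested. Of these, 631 rose (2.5% of tested genes) and 196 fell (0.776%). The rises included the serpin SERPINB2, the matrix metalloproteinases MMP1, MMP3, MMP10 and MMP13, and inflammatory mediators such as CCL20, IL24 and PTGS2. The falls included immediate early transcription factors, among them FOSB and the 3 NR4A nuclear receptors, and 17 genes of DNA replication. Rises over 2-fold were common (568 genes) and falls over 2-fold were few (41 genes). Among protein coding genes, 417 rose and 168 fell out of 14862 tested, and among long noncoding RNA genes 86 rose and 1 fell out of 3880 tested. Over all tested genes the median log2 fold change was 0.04. Without any test, both treated samples lay above both C2 samples in 8303 genes (32.9%) and below them in 7386 genes (29.3%).

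**Figure D1:**
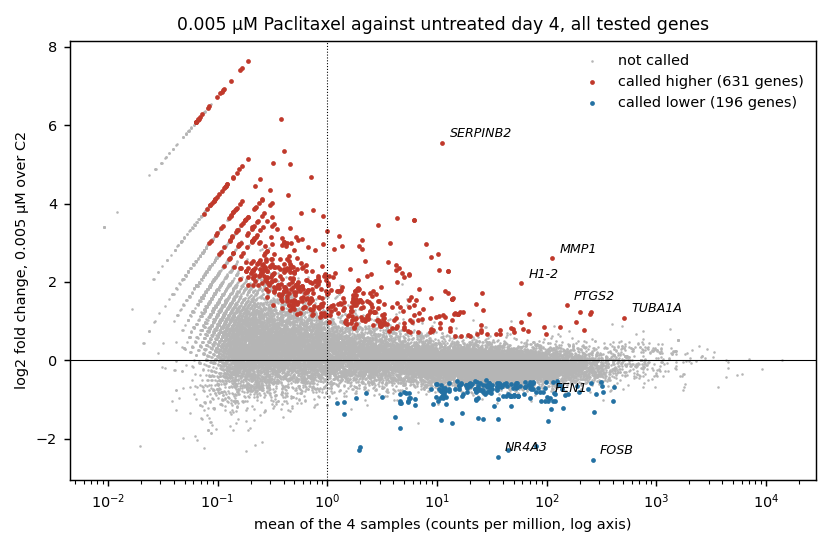
Mean level of each tested gene over the 4 samples (CPM, log axis) against its log2 fold change in 0.005 µM over C2. Grey points were not called, the 631 red points rose and the 196 blue points fell, and the dotted line stands at 1 CPM. The called rises gather at low levels and the called falls at levels above 5 CPM.

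The direction of the calls depended on the level of expression. Of the 9425 genes with a mean below 1 CPM over the 4 samples, 391 rose and 0 fell, and their median log2 fold change was 0.52. The 3567 genes between 1 and 5 CPM held 148 rises and 14 falls. Among 3933 genes between 5 and 20 CPM, 61 rose and 52 fell. The falls outnumbered the rises above that level, with 101 against 22 among 6330 genes between 20 and 100 CPM and 29 against 9 among 1994 genes above 100 CPM. The 12257 tested genes of at least 5 CPM had a median of -0.12. More genes were also detected in the treated samples. At an equal depth of 38380629 counts, 36092 and 35567 identifiers were expected to have a count in the treated samples, against 30917 and 32416 in C2. Genes below 1 CPM took 0.387% and 0.359% of the counts in the treated samples and 0.232% and 0.280% in C2. Of the called rises, 62.0% had a mean below 1 CPM and 20 had no count in either C2 sample. Such genes, and others with only a few C2 counts such as CCL5, could be tested only because of their treated counts, so their place among the tested members of a list is not independent of their rise. The part that this wider low-level signal played in the rises of weakly expressed genes was not tested.

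Fewer genes were called when 1 of the 4 samples of the comparison was left out. Such a fit leaves 1 sample in that group and has less power, so a lost call does not show that it rested on that library. Without C2 replicate 1 the fit called 85 genes, of which 84 were among the 827, and only 5 of the 85 fell. Without C2 replicate 2 it called 304 genes, and without the first or the second treated sample 175 or 184 genes. Without C1 replicate 1 or C1 replicate 2 the number rose to 3316 or 3231. A total of 77 genes stayed called whichever of the 4 samples of the comparison was left out, and 3 of them fell, namely FOSB, OSR2 and CFAP210. No gene among the 827 changed direction while called in any of the alternative fits. Where the calls of a list are given below with 1 of the 4 samples left out, the order is C2 replicate 1, C2 replicate 2, treated replicate 1 and treated replicate 2. Without either C1 sample the calls of most lists grew, to between 18 and 20 rises among the interferon-stimulated genes and to 29 falls among the cholesterol genes. The medians of several lists depended on the C2 samples as well. Without C2 replicate 1 and without C2 replicate 2, respectively, the median was -0.15 and -0.43 for immediate early genes, -0.10 and -0.40 for integrin and focal adhesion genes, -0.23 and -0.51 for YAP targets, -0.18 and -0.30 for tubulin folding genes, 0.10 and 0.43 for ribosomal protein genes and -0.44 and -0.19 for mitochondrially encoded genes. It was -0.06 and -0.24 for TGF-beta components, -0.06 and -0.29 for growth factors and 0.01 and 0.39 for metallothioneins, and medians closer to 0 could change sign, as that of the protease list did without C2 replicate 1.

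**Figure D2:**
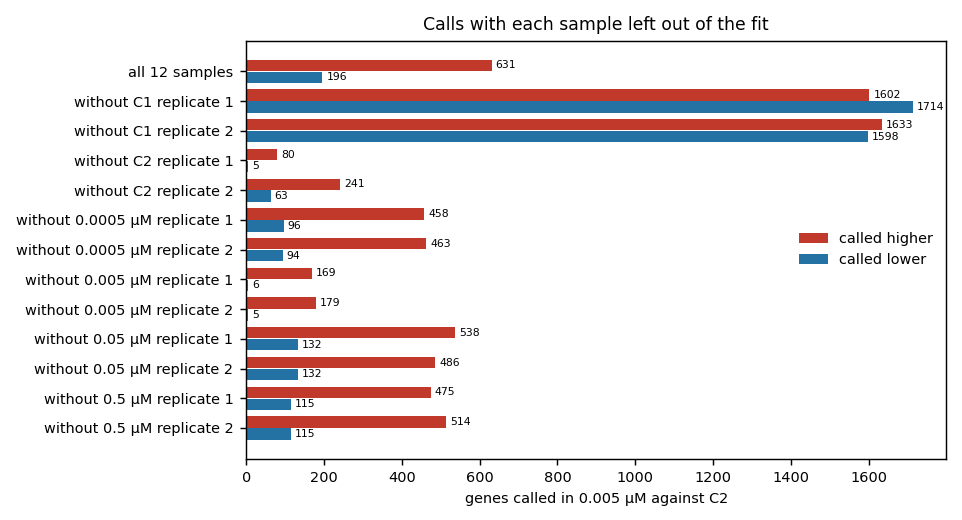
Number of genes called in 0.005 µM against C2 with all 12 samples and with each sample left out of the fit (horizontal axis, genes). Red bars are genes called higher and blue bars genes called lower. The number called lower dropped from 196 to 5 without C2 replicate 1 and rose to 1714 without C1 replicate 1.

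Matrix proteases and their inhibitors held some of the largest rises. SERPINB2, the plasminogen activator inhibitor of type 2 (ENSG00000197632, chromosome 18), measured 0.262 and 0.681 CPM in C2 and 20.04 and 23.7 CPM in the treated samples. Its log2 fold change was 5.55 (SE 0.34, edgeR adjusted p = 1.56e-05), the largest among called genes of at least 5 CPM. MMP1, the interstitial collagenase, measured 22.7 and 40.6 CPM in C2 and 183 and 202 CPM after treatment, a log2 fold change of 2.61 (SE 0.29, adjusted p = 0.000801). MMP3, stromelysin 1, which cleaves matrix proteins and activates other MMP proenzymes, went from 0.753 and 1.14 CPM to 11.8 and 10.8 CPM (log2 fold change 3.59, SE 0.23, adjusted p = 1.56e-05). In all 3 genes the treated samples lay far above both C2 samples, and the gap was wider than the spread within either pair. MMP13, collagenase 3, measured 2.05 and 2.87 CPM in C2 and 15.4 and 15.2 CPM after treatment (log2 fold change 2.64, SE 0.18, adjusted p = 2.49e-05). MMP10, stromelysin 2, measured 1.47 and 4.67 CPM in C2 and 10.5 and 11.01 CPM after treatment, and here the C2 samples differed widely between themselves (log2 fold change 1.82, SE 0.44, adjusted p = 0.045, and 0.28 without C2 replicate 1).

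**Figure D3:**
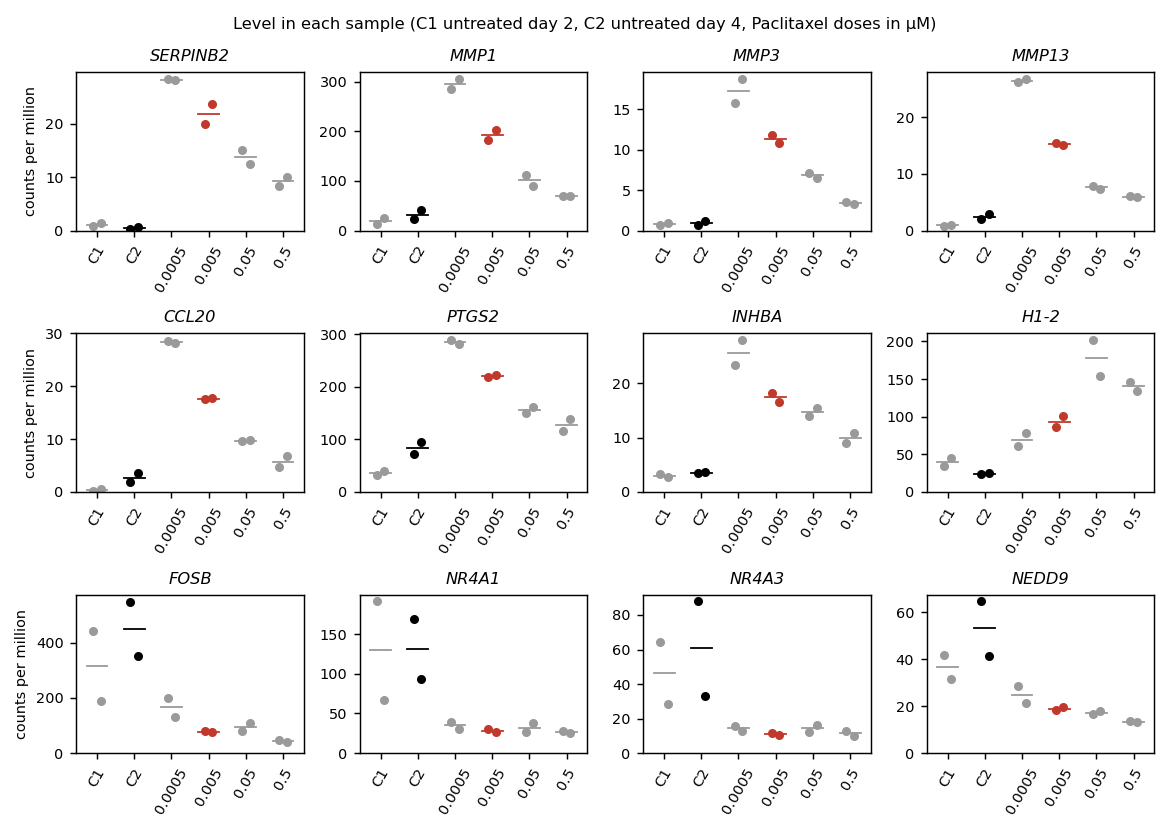
Level of 12 genes in each of the 12 samples (CPM, linear axes from 0). Points are samples and short lines the mean of the 2 samples of a condition, with C2 in black, 0.005 µM in red and the other conditions in grey. SERPINB2, the 3 MMP genes, CCL20, PTGS2, INHBA and H1-2 lie higher in both 0.005 µM samples than in both C2 samples, and FOSB, NR4A1, NR4A3 and NEDD9 lie lower.

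MMP genes lie side by side on chromosome 11, where the annotation of GRCh37 places 9 of them between positions 102391239 and 102826461. This region was singled out after the values were seen. Of the 9 genes there, 5 were expressed well enough to be tested, and these were the neighbours MMP10 (102641233 to 102651359), MMP1 (102660132 to 102668891), MMP3 (102706532 to 102714340), MMP12 (102733467 to 102745712) and MMP13 (102813724 to 102826461), all on the minus strand. The 5 neighbours were called higher by edgeR. DESeq2 did not call MMP10 (adjusted p = 0.0655), MMP12 (0.0866) or MMP9 (0.0843), and with 1 of the 4 samples left out MMP10 was called only without C2 replicate 2, and MMP12 and MMP9 in no case. MMP12 could be tested only because of its treated counts. MMP12, the macrophage elastase, had only 0 and 1 counts in C2 and 21 and 9 counts in the treated samples, a ratio of 20.9 with a 95% exact counting interval of 3.48 to 854, which covers counting error only. Of the 11 tested MMP genes elsewhere in the genome, 2 were called higher. These were MMP19, with 3.54 and 3.70 CPM in C2 and 6.18 and 6.46 CPM after treatment, and MMP9, the gelatinase B, with 0 and 1 counts in C2 and 13 and 15 counts after treatment (ratio 19.5, interval 3.23 to 798).

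In the list of 42 tested protease and inhibitor genes, 8 rose and 3 fell, and the median log2 fold change was -0.11, so the rises concerned a minority of the list. The 3 falls were all inhibitors of MMP activity. TIMP3 measured 8.17 and 3.86 CPM in C2 and 1.95 and 2.45 CPM after treatment. TIMP4 measured 39.1 and 21.7 CPM in C2 and 14.3 and 15.8 CPM after treatment. RECK, a membrane-anchored MMP inhibitor, measured 16.2 and 13.9 CPM in C2 and 8.85 and 8.69 CPM after treatment. In TIMP3 and TIMP4 the C2 samples differed more from each other than the lower one did from the treated samples. Leaving out those 4 samples in turn left 4, 5, 4 and 4 rises and 0, 2, 0 and 0 falls. SERPINB2, MMP1, MMP3 and MMP13 rose in each of these fits, and without C2 replicate 1 the adjusted p of TIMP3, TIMP4 and RECK was 0.43, 0.39 and 0.24.

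Among inflammatory cytokines and chemokines, 12 of 31 tested members rose and 0 fell, against 2.5% called higher over all tested genes. Of the 31, 19 lay above and 5 below both C2 samples, against 32.9% and 29.3% of all tested genes. The median log2 fold change was 0.66. When genes had to reach 1 CPM on average, 25 members were tested, 9 rose and the median was 0.52. IL24, a cytokine of the IL-10 family, measured 0.769 and 0.515 CPM in C2 and 7.96 and 8.05 CPM after treatment (log2 fold change 3.63, SE 0.22, adjusted p = 1.56e-05). CCL20, the ligand of CCR6, measured 1.88 and 3.51 CPM in C2 and 17.5 and 17.8 CPM after treatment (log2 fold change 2.72, SE 0.37, adjusted p = 0.00245). The treated pair was tight in both genes and stood clear of C2. PTGS2, the inducible cyclooxygenase that makes prostaglandin precursors, rose from 72.6 and 95.1 CPM to 219 and 222 CPM (log2 fold change 1.40, SE 0.17, adjusted p = 0.00116). IL32 rose from 9.74 and 14.1 CPM to 37.5 and 40.7 CPM, and CSF3, the granulocyte colony-stimulating factor, from 0.311 and 0.607 CPM to 3.44 and 3.38 CPM.

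Both interleukin 1 genes were among the rises. IL1A measured 4.65 and 7.12 CPM in C2 and 18.4 and 19.98 CPM after treatment (log2 fold change 1.71, SE 0.28, adjusted p = 0.00753). IL1B measured 12.3 and 18.5 CPM in C2 and 36.1 and 38.4 CPM after treatment (log2 fold change 1.27, SE 0.21, adjusted p = 0.00711). The chemokine CXCL1 rose from 37.9 and 41.7 CPM to 77.4 and 78.2 CPM. The interferon-inducible chemokines CXCL10 and CXCL11 rose from at most 0.478 and 0.147 CPM in C2 to at least 1.79 and 0.696 CPM after treatment. CCL5 had 0 and 3 counts in C2 and 46 and 48 after treatment (ratio 21.9, interval 7.25 to 108), and CXCL5 had 2 and 1 counts in C2 and 26 and 48 after treatment (ratio 17.2, interval 5.66 to 85.3). CXCL8, the neutrophil chemokine interleukin 8, measured 817 and 1122 CPM in C2 and 1648 and 1722 CPM after treatment, but was not called (log2 fold change 0.80, SE 0.44, adjusted p = 0.349). With those 4 samples left out in turn, 5, 10, 11 and 8 cytokine genes were called higher and 0 lower, and without C1 replicate 1 or C1 replicate 2 there were 17 rises and 2 falls.

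Of 25 tested NF-kB subunits and feedback genes, 3 rose and 0 fell, with a median of 0.05. They were NFKBIE, an inhibitor subunit (19.1 and 18.4 CPM in C2, 30.3 and 33.4 CPM after treatment), TRAF1, an adaptor of TNF receptors (23.5 and 32.1 CPM, then 46.2 and 48.8 CPM), and ICAM1, the adhesion molecule for leukocytes (44.3 and 43.9 CPM, then 76.5 and 77.3 CPM). With the same 4 samples left out in turn, 0, 1, 0 and 0 of the list were called. Markers of immune cells were measured beside these groups. The summed level of 8 immune markers, as unscaled CPM, was 1.36 and 1.26 in C2 and 3.02 and 2.68 in the treated samples, most of it from CD14 and CSF1R, which measured at most 0.52 and 0.598 in C2 and at least 1.08 and 1.15 after treatment. PTPRC, the common leukocyte antigen, measured 0.0808 and 0.13 in C2 and 0.228 and 0.209 after treatment. TYROBP, an adaptor of myeloid and natural killer cells, was at 0 in 3 of the 4 samples. The summed level of 6 endothelial markers was 1.63 and 0.91 in C2 and 2.26 and 2.64 after treatment, while that of 11 fibroblast markers was between 99.7 and 127 in all 4 samples, most of it FBN1. Of the other fibroblast markers, all but LUM and PDGFRB lay above both C2 samples in both treated samples, most at low levels. PDGFRA measured 0.113 and 0.13 in C2 and 0.646 and 0.927 after treatment. COL1A1 measured 5.96 and 6.59 in C2 and 10.6 and 10.04 after treatment. PDGFRB measured 9.03 and 5.05 in C2 and 5.30 and 5.50 after treatment. The part of such cells in these results was not tested.

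Interferon-stimulated genes rose in part. Of 44 tested members, 9 were called higher and 0 lower, against 2.5% and 0.776% of all tested genes. A positive fold change was found in 40, against 13429 of 25249 tested genes and 3896 of 12257 genes of at least 5 CPM. The list median was 0.35. IFI27 measured 0.524 and 0.791 CPM in C2 and 4.09 and 3.48 CPM after treatment (log2 fold change 2.53, SE 0.27, adjusted p = 0.000541). IFI44L measured 1.21 and 1.25 CPM in C2 and 4.27 and 3.40 CPM after treatment (log2 fold change 1.64, SE 0.28, adjusted p = 0.00893). RSAD2, the antiviral protein viperin, measured 1.06 and 0.957 CPM in C2 and 2.98 and 2.69 CPM after treatment (log2 fold change 1.49, SE 0.25, adjusted p = 0.00839). Among members with higher levels the changes were smaller. IFIT2 rose from 101 and 87.2 CPM to 173 and 169 CPM (log2 fold change 0.86, SE 0.16), OASL from 41.3 and 35.0 CPM to 63.0 and 62.2 CPM, and IFI16, a sensor of DNA, from 76.8 and 74.9 CPM to 119 and 124 CPM. MX1, OAS2 and XAF1 were the other called members. The fits with 1 of the 4 samples left out called 1, 2, 1 and 3 members, IFI27 in each of them, and the median without C2 replicate 1 was 0.39. Of 20 tested genes of MHC class I antigen presentation, only TAPBPL was called, against 2.5% of all tested genes called higher, and the median was 0.21. With any 1 of the 4 samples left out, 0 were called by edgeR, and DESeq2 called 2 higher.

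Interferon-stimulated genes are switched on through the interferon-stimulated response element, a short promoter sequence bound by interferon-activated factors, and this element was looked for after the calls in the list were seen. RefSeq promoter windows (GRCh38.p14, 250 bases before to 50 bases after the start) were searched on both strands for the letters GAAA, any 2 bases and GAAA again. The motif was found for 22 of 33 tested members with a window and for 4 of the 6 called members with one (IFI27, IFI44L, MX1 and RSAD2), against 4.38% of all 27305 genes with a window. The 200 bases before the start are shown for the 3 genes with the largest rises among these, with each match in capitals.
IFI44L, chr1:78620248-78620447, plus strand: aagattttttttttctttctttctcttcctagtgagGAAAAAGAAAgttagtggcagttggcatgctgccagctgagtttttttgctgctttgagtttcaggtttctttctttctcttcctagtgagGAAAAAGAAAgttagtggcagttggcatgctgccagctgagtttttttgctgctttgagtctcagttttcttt
IFI27, chr14:94110536-94110735, plus strand: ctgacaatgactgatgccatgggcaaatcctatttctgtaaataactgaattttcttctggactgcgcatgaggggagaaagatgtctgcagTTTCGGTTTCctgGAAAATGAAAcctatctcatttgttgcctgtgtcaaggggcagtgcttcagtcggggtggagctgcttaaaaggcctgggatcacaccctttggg
RSAD2, chr2:6877577-6877776, plus strand: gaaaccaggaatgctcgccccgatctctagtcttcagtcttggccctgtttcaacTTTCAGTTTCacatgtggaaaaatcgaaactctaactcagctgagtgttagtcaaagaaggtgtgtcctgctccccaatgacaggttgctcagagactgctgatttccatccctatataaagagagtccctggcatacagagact
IFI44L holds the motif 2 times in the plus direction, IFI27 once in each direction and RSAD2 once in the minus direction. The matches describe the letters of these windows and not binding in these cells. The share was 66.7% in the tested list and 66.7% in its called members. A list of interferon-stimulated genes can be expected to hold more of these letters than other genes, so the share says nothing about the calls. The same search was made for AP-1 letters (TGACTCA and TGAGTCA) in the protease list and for the cyclic AMP response element (TGACGTCA) in the immediate early list. AP-1 letters were found for 1 of 24 tested protease genes with a window and for 0 of the 5 called ones with a window, against 5.46% of tested genes with a window, and MMP1, MMP3, MMP9, MMP12, MMP13 and MMP19 had no window to search. The cyclic AMP element was found for 3 of 26 tested immediate early genes and for 1 of the 9 called ones with a window (JUND), against 3.44%, and ARC and NR4A2 had no window to search.

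Immediate early transcription factors made up the 4 largest falls among genes of at least 5 CPM. These genes are transcribed within minutes of growth factor, calcium or stress signals and their mRNAs are short-lived. According to the study's methods, each gel was broken up and digested with collagenase and dispase before the cells were lysed. The part of this handling in the levels of these genes was not tested. FOSB, a partner of JUN in the AP-1 factor (ENSG00000125740, chromosome 19), measured 549 and 350 CPM in C2 and 79.2 and 75.4 CPM after treatment (log2 fold change -2.54, SE 0.36, adjusted p = 0.00311, and 0.043 without C2 replicate 1). NR4A1 measured 168 and 93.9 CPM in C2 and 30.4 and 26.6 CPM after treatment (log2 fold change -2.20, SE 0.41, adjusted p = 0.014). NR4A2 measured 101 and 46.4 CPM in C2 and 15.2 and 14.99 CPM after treatment (log2 fold change -2.29, SE 0.39, adjusted p = 0.00953). NR4A3 measured 87.9 and 33.4 CPM in C2 and 11.6 and 10.3 CPM after treatment (log2 fold change -2.47, SE 0.43, adjusted p = 0.00984). In all 4 genes the treated samples were close to each other and below both C2 samples, while C2 replicate 1 was well above C2 replicate 2. When C2 replicate 1 was left out, the NR4A genes had log2 fold changes of -1.72, -1.62 and -1.61 with adjusted p of 0.16, 0.11 and 0.11.

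Of 35 tested immediate early genes, 9 fell and 2 rose, with a median of -0.27. FOS fell from 99.8 and 86.4 CPM to 47.7 and 48.0 CPM (log2 fold change -0.96, SE 0.15, adjusted p = 0.00662), ATF3 from 455 and 312 CPM to 145 and 160 CPM (log2 fold change -1.33, SE 0.18, adjusted p = 0.00256), KLF4 from 173 and 135 CPM to 63.8 and 66.3 CPM, KLF2 from 40.1 and 29.5 CPM to 12.4 and 12.6 CPM, and JUND from 210 and 175 CPM to 106 and 103 CPM. ARC, a regulator of synaptic and vesicle transport, moved the other way, from 5.03 and 5.56 CPM to 17.6 and 18.7 CPM (log2 fold change 1.78, SE 0.20, adjusted p = 0.000937), and IER5L rose from 13.7 and 12.2 CPM to 19.02 and 21.0 CPM. Leaving out the 4 samples in turn left 2, 8, 1 and 2 falls and 1 rise each time, and the falls of FOSB and ATF3 and the rise of ARC were those without C2 replicate 1. Of 25 MAPK feedback genes only DUSP1, a phosphatase of MAP kinases, was called (651 and 431 CPM in C2, 260 and 269 CPM after treatment, adjusted p = 0.0365, and 0.35 without C2 replicate 1). The single MAPK feedback call stands beside 0.776% of all tested genes called lower. SIK1, a kinase induced by cyclic AMP, was outside these lists and measured 199 and 106 CPM in C2 and 53.2 and 51.4 CPM after treatment.

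The remaining large falls included genes of other roles. OSR2, a zinc finger transcription factor, measured 24.3 and 16.8 CPM in C2 and 6.69 and 6.72 CPM after treatment (log2 fold change -1.61, SE 0.21, adjusted p = 0.00237). NEDD9, a scaffold of focal adhesions that promotes migration, measured 64.9 and 41.6 CPM in C2 and 18.2 and 19.6 CPM after treatment (log2 fold change -1.50, SE 0.22, adjusted p = 0.00353). DMBT1, a secreted scavenger receptor, measured 17.1 and 15.1 CPM in C2 and 6.59 and 4.66 CPM after treatment. RAB17, a small GTPase of epithelial trafficking, measured 51.6 and 26.4 CPM in C2 and 14.6 and 12.7 CPM after treatment, and FHL1, a LIM domain protein, measured 32.0 and 17.2 CPM in C2 and 9.79 and 9.37 CPM after treatment. Of these 5 genes, only OSR2 stayed called without C2 replicate 1 (adjusted p = 0.038), while NEDD9 and DMBT1 were at 0.059 and 0.052.

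Of 48 tested DNA replication genes, 17 fell and 0 rose. The treated samples lay below both C2 samples in 46 of the 48, against 6005 of 12257 genes of at least 5 CPM, and the median log2 fold change was -0.64, against -0.12 for all genes of at least 5 CPM. FEN1, the flap endonuclease that processes Okazaki fragments, measured 135 and 133 CPM in C2 and 66.9 and 72.3 CPM after treatment (log2 fold change -0.94, SE 0.15, adjusted p = 0.00659). CLSPN, the adaptor of the replication checkpoint, measured 56.4 and 55.5 CPM in C2 and 30.5 and 29.1 CPM after treatment (log2 fold change -0.91, SE 0.14, adjusted p = 0.00543). CDC45, part of the replicative helicase, measured 28.5 and 29.5 CPM in C2 and 16.5 and 16.3 CPM after treatment (log2 fold change -0.82, SE 0.14, adjusted p = 0.00759). Unlike the immediate early genes, these genes were nearly equal in the 2 C2 samples, and both treated values lay well below them. CDC6, which loads the MCM helicase, fell from 104 and 98.3 CPM to 57.1 and 58.8 CPM, MCM6, a subunit of that helicase, from 95.5 and 93.5 CPM to 55.3 and 57.5 CPM, GINS2 from 28.7 and 34.4 CPM to 16.3 and 15.997 CPM, and RRM2, the ribonucleotide reductase subunit, from 151 and 157 CPM to 80.8 and 86.8 CPM. TYMS, the thymidylate synthase and target of fluorouracil, fell from 120 and 113 CPM to 65.4 and 68.2 CPM.

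**Figure D4:**
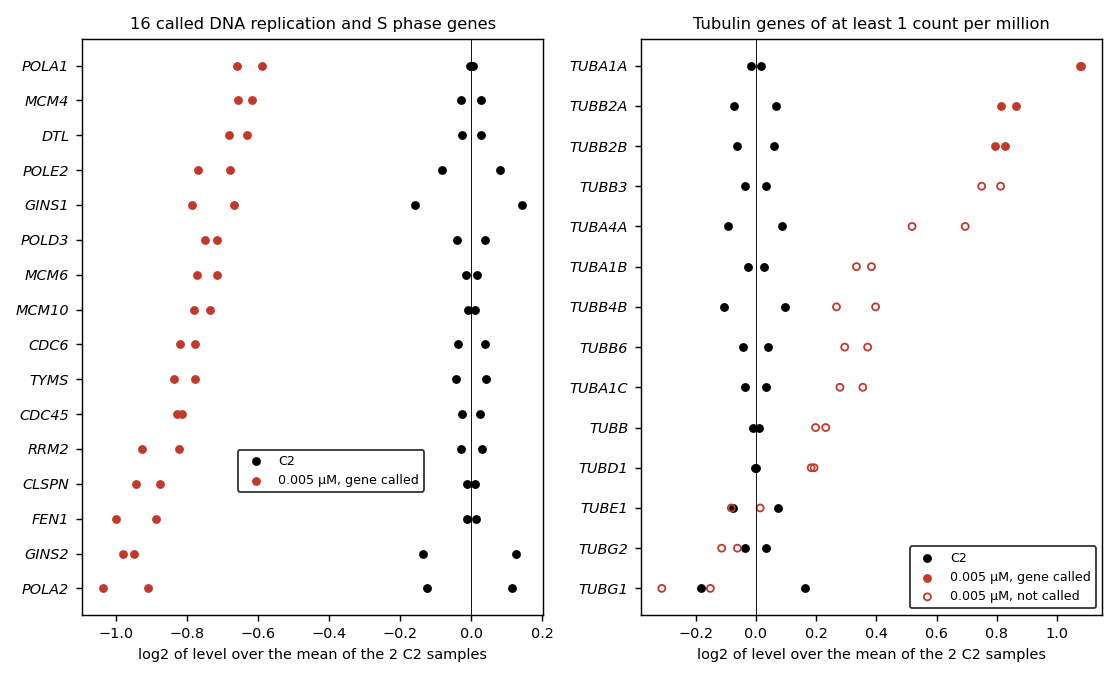
Level of each gene in each sample as log2 of its value over the mean of the 2 C2 samples (horizontal axes), for 16 of the 17 called DNA replication and S phase genes (left) and for the 14 tubulin genes of at least 1 CPM (right). Black points are C2 and red points 0.005 µM, filled where the gene was called. All treated replication values lie to the left of C2, and those of TUBA1A, TUBB2A and TUBB2B lie to the right.

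Most calls of the replication list were lost when 1 of the 4 samples was left out, which leaves 1 sample in that group. Without C2 replicate 1, or without either treated sample, 0 of the 17 were called, and without C2 replicate 2 there were 2, although the median stayed between -0.66 and -0.63. The fits without C1 replicate 1 or C1 replicate 2 called 39 members lower each. Among 35 tested homologous recombination and Fanconi genes there were 5 falls and 0 rises, with a median of -0.34. BRIP1, the helicase partner of BRCA1, fell from 35.2 and 37.7 CPM to 21.6 and 20.1 CPM (log2 fold change -0.81, SE 0.12, adjusted p = 0.00485), EXO1 from 35.9 and 38.8 CPM to 21.8 and 21.8 CPM, BRCA1 from 35.6 and 35.3 CPM to 23.8 and 23.5 CPM, BRCA2 from 45.9 and 45.6 CPM to 31.5 and 28.3 CPM, and BARD1, which pairs with BRCA1, from 23.3 and 24.4 CPM to 16.3 and 15.2 CPM. The fits with 1 of the 4 samples left out called 0, 1, 0 and 0 of the list. In bulk RNA, fewer cells in S phase and less of these transcripts per cell cannot be told apart.

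Replication genes are known targets of the E2F factors, and their windows were searched on both strands for the E2F letters TTTCCCGC, TTTCGCGC, TTTGCCGC and TTTGGCGC. At least 1 match was found for 22 of 40 tested members with a window and for 10 of the 14 called members with one, against 5.9% of tested genes with a window and 3.99% of all genes with one. The 200 bases before the start are shown for 2 of the 10, with the matches in capitals.
MCM6, chr2:135876444-135876643, minus strand: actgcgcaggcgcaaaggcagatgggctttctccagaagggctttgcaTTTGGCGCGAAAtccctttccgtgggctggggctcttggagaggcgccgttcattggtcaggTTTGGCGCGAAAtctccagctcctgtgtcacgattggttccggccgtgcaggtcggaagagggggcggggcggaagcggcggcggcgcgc
GINS2, chr16:85688955-85689154, minus strand: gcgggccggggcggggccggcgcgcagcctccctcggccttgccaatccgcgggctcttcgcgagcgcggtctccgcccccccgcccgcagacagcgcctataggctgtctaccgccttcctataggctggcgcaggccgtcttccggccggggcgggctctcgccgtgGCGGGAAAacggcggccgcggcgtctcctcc
MCM6 holds 4 matches, which overlap in pairs on opposite strands, and GINS2 holds 1 match on the opposite strand of the gene. Here too the letters do not show binding, and a list of known E2F targets can be expected to hold more of them than other genes.

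Genes of G2 and mitosis did not pass the test. Of 45 tested members, 36 lay below both C2 samples, against 6005 of 12257 genes of at least 5 CPM, 19 had an unadjusted p below 0.05, against 1897 of those 12257, and 0 were called by edgeR in either direction, with a median of -0.33, while DESeq2 called 7 lower. TOP2A, the topoisomerase of chromosome segregation, measured 488 and 508 CPM in C2 and 322 and 325 CPM after treatment (log2 fold change -0.62, SE 0.16, adjusted p = 0.0548). NUSAP1, a microtubule-binding spindle protein, measured 129 and 138 CPM in C2 and 86.9 and 92.0 CPM after treatment (adjusted p = 0.0584). MKI67, the proliferation marker Ki-67, measured 206 and 195 CPM in C2 and 133 and 128 CPM after treatment, and CDK1 measured 158 and 179 CPM in C2 and 107 and 114 CPM after treatment, with adjusted p of 0.207 and 0.139. CCNB1, the mitotic cyclin B1, did not separate the groups, at 146 and 161 CPM in C2 and 156 and 172 CPM after treatment (log2 fold change 0.09, SE 0.19). Of 30 tested p53 target genes 1 rose, GADD45A, from 37.6 and 34.9 CPM to 62.5 and 63.9 CPM, and CDKN1A, the CDK inhibitor p21, measured 76.6 and 69.8 CPM in C2 and 71.6 and 72.0 CPM after treatment. Of 18 tested genes of the BCL2 family 1 rose, BMF, a promoter of cell death after loss of attachment, from 10.2 and 9.48 CPM to 16.7 and 16.3 CPM. Over all tested genes 2.5% were called higher, so these single calls are not results about their lists. Neither GADD45A nor BMF was called with any 1 of the 4 samples left out.

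Of 18 tested replication-dependent histone genes, 5 rose and 0 fell, and the median was 0.52. H1-2, a linker histone, measured 23.2 and 24.7 CPM in C2 and 86.1 and 100.3 CPM after treatment (log2 fold change 1.96, SE 0.20, adjusted p = 0.000351). H4C8 measured 1.39 and 1.23 CPM in C2 and 6.49 and 7.76 CPM after treatment (log2 fold change 2.44, SE 0.20, adjusted p = 7.47e-05). H1-4, H2AC6 and H2BC21 also rose, H2AC6 from 10.04 and 9.44 CPM to 21.3 and 24.3 CPM. H4C14 and H4C15, outside the list as matched, also rose, with 104 and 127 counts each in C2 and with 769 and 749 counts of H4C14 and 771 and 749 counts of H4C15 after treatment. The pair encodes the same protein and the counts nearly coincide, so the values are not independent. H2BC11 had the highest CPM of the list, at 732 and 633 CPM in C2 and 572 and 649 CPM after treatment, and was not called (log2 fold change -0.16, SE 0.23). The cells carry a transfected histone fused to GFP, and reads from such a transgene cannot be told apart from those of the matching endogenous gene. Only 26 of the 57 histone symbols fixed for the list were found in the table, and 2, 3, 5 and 3 members were called with 1 of the 4 samples left out, H1-2 and H4C8 in each case.

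Tubulin genes, which encode the target of the drug, were mostly higher. Of 18 tested members, 13 lay above both C2 samples, against 32.9% of all tested genes and 2254 of 12257 genes of at least 5 CPM, 3 were called higher and 0 lower, and the median was 0.35. TUBA1A, an alpha tubulin (ENSG00000167552, chromosome 12), measured 329 and 321 CPM in C2 and 688 and 686 CPM after treatment (log2 fold change 1.08, SE 0.16, adjusted p = 0.00374). TUBB2A measured 71.7 and 65.1 CPM in C2 and 120 and 124 CPM after treatment (log2 fold change 0.84, SE 0.20, adjusted p = 0.039), and TUBB2B measured 35.5 and 32.6 CPM in C2 and 59.1 and 60.3 CPM after treatment (log2 fold change 0.81, SE 0.20, adjusted p = 0.046). TUBB2A and TUBB2B are nearly identical neighbours, so their values are not independent. The differences of TUBB and TUBA1B were smaller and did not pass the test. TUBB measured 988 and 974 CPM in C2 and 1153 and 1126 CPM after treatment (log2 fold change 0.22, SE 0.20, adjusted p = 0.59), and TUBA1B measured 389 and 404 CPM in C2 and 499 and 517 CPM after treatment (log2 fold change 0.36, SE 0.15, adjusted p = 0.229). TUBB3, the isotype often linked to taxane resistance, measured 4.47 and 4.69 CPM in C2 and 7.70 and 8.05 CPM after treatment, without overlap but with an adjusted p of 0.0732. The gamma tubulin TUBG1 measured 79.4 and 62.5 CPM in C2 and 57.2 and 63.9 CPM after treatment, and the groups overlapped. The fits with 1 of the 4 samples left out called 0, 1, 1 and 1 tubulin genes, and the adjusted p of TUBA1A without C2 replicate 1 was 0.072. Of 34 tested genes of tubulin folding and microtubule binding 0 were called, 4 had an unadjusted p below 0.05, and the median was -0.27, while DESeq2 also called 0.

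Among transporters of the ABC family, some of which export taxanes, 6 of 36 tested members rose and 0 fell. The share called higher was 2.5% over all tested genes and 4.15% among genes below 1 CPM. The list median was -0.11, and the called members ABCA9, ABCA10 and ABCA13 had a mean below 1 CPM. ABCC9, a potassium channel subunit of the family, rose from 1.36 and 2.15 CPM to 6.76 and 7.09 CPM (log2 fold change 1.98, SE 0.21, adjusted p = 0.000541), ABCA1, the cholesterol exporter, from 8.09 and 7.19 CPM to 13.8 and 13.2 CPM, and ABCC2, a drug and conjugate exporter, from 3.39 and 3.68 CPM to 6.04 and 6.76 CPM. ABCA9 had no count in either C2 sample and 19 and 18 counts after treatment. Taking 3 counts per library as the floor for C2, this is at least 4.29-fold higher. ABCA9 could be tested only because of its treated counts. ABCB1, the P-glycoprotein that exports Paclitaxel, measured 0.164 and 0.276 CPM in C2 and 0.354 and 0.310 CPM after treatment and was not called (adjusted p = 0.442). With 1 of the 4 samples left out, 1, 2, 1 and 1 members were called, ABCC9 in each case.

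Genes of cholesterol and fatty acid synthesis had 4 falls and 0 rises among 34 tested members. The treated samples lay below both C2 samples in 32 of the 34 and 0 had a positive fold change, against 6005 below and 3896 positive of 12257 genes of at least 5 CPM, and the median was -0.50. HMGCS1, the synthase before HMG-CoA reductase, measured 405 and 430 CPM in C2 and 247 and 226 CPM after treatment (log2 fold change -0.82, SE 0.14, adjusted p = 0.0075). INSIG1, the sterol-regulated inhibitor of the pathway, fell from 296 and 211 CPM to 150 and 138 CPM, CYP51A1 from 37.4 and 36.2 CPM to 23.6 and 21.9 CPM, and SQLE, the squalene epoxidase, from 52.2 and 45.5 CPM to 32.8 and 31.8 CPM. The fits with 1 of the 4 samples left out called 0, 1, 0 and 0 members lower, the median without C2 replicate 1 was -0.41, and with DESeq2 12 members were called lower.

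Stress responses were mixed. Of 42 tested genes of the ER stress and amino acid response, 2 rose and 2 fell, with a median of -0.13. DDIT3, the stress factor CHOP, rose from 9.48 and 14.9 CPM to 30.8 and 35.1 CPM (log2 fold change 1.44, SE 0.26, adjusted p = 0.0121), and PSAT1, of serine synthesis, fell from 86.9 and 81.9 CPM to 57.4 and 57.4 CPM. STC2, a secreted glycoprotein, and ATF3 were the other calls, and the fits with 1 of the 4 samples left out held 0, 2, 0 and 1 rises and 1, 1, 0 and 1 falls. Of 38 NRF2 and antioxidant genes, 3 rose and 0 fell, and 1, 2, 2 and 2 with 1 sample left out. HMOX1, the heme oxygenase, rose from 9.94 and 10.5 CPM to 23.4 and 24.8 CPM (log2 fold change 1.24, SE 0.16, adjusted p = 0.00169, and 0.048 without C2 replicate 1). AKR1B10 rose from 0.229 and 0.350 CPM to 1.52 and 1.51 CPM. Of 40 heat shock and chaperone genes, 3 fell and 1 rose, with a median of -0.09. HSPA1B, an inducible HSP70 gene, fell from 118 and 123 CPM to 58.6 and 58.2 CPM, and its near-identical copy HSPA1A from 6.97 and 7.65 CPM to 3.43 and 3.57 CPM, although the split of reads between the 2 copies is uncertain. DNAJB1, the HSP40 partner of HSP70, fell from 398 and 382 CPM to 240 and 254 CPM. None of the heat shock genes was called with any 1 of the 4 samples left out, and the fall of DNAJB1 had an adjusted p of 0.052 with offsets for GC content and gene length.

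Genes of adhesion, the cytoskeleton and mesenchymal identity held few calls. Over all tested genes 2.5% were called higher and 0.776% lower, so the single calls below are not results about their lists. Of 65 actin and myosin genes, 46 lay below both C2 samples, against 6005 of 12257 genes of at least 5 CPM. DIAPH3, a formin, fell from 43.9 and 44.6 CPM to 29.6 and 29.4 CPM, while RND1, a small GTPase that loosens adhesion, rose from 4.80 and 3.57 CPM to 8.93 and 10.3 CPM (log2 fold change 1.20, SE 0.17, adjusted p = 0.00311). Of 40 integrin and focal adhesion genes 1 fell (NEDD9), 0 rose, and the median was -0.26. Of 18 tested EMT factors and mesenchymal genes 0 were called by edgeR or by DESeq2 and 1 had an unadjusted p below 0.05, and VIM measured 1129 and 1078 CPM in C2 and 879 and 972 CPM after treatment (adjusted p = 0.531). Of 31 TGF-beta pathway components 1 was called, INHBA, the activin A subunit, which rose from 3.45 and 3.61 CPM to 18.3 and 16.6 CPM (log2 fold change 2.30, SE 0.17, adjusted p = 4.36e-05), and the median was -0.19. Among 29 TGF-beta response genes 1 rose and 2 fell (MMP9, NEDD9 and TIMP3), and among 23 YAP target genes 1 rose and 0 fell, with a median of -0.36. CCN2, a target of both YAP and TGF-beta, measured 528 and 344 CPM in C2 and 217 and 210 CPM after treatment, and did not pass the test (log2 fold change -1.03, SE 0.31, adjusted p = 0.097). With 1 of the 4 samples left out, RND1 and INHBA were called each time and DIAPH3 in no case, 0, 2, 0 and 1 members of the integrin list and likewise 0, 2, 0 and 1 of the TGF-beta response list were called, all lower, and 0 YAP targets were called.

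Epithelial and matrix genes showed a few rises. Of 34 epithelial junction and keratin genes, 3 rose and 0 fell, and PKP1 among them could be tested only because of its treated counts. KRT14, a basal keratin, measured 0.115 and 0.147 CPM in C2 and 1.64 and 1.76 CPM after treatment (log2 fold change 3.69, SE 0.31, adjusted p = 6.57e-05), KRT16 measured 0.115 and 0.0736 CPM in C2 and 0.448 and 0.570 CPM after treatment, and PKP1, a desmosome protein, had no count in C2 and 24 and 20 counts after treatment. With 1 of the 4 samples left out, 1, 2, 3 and 2 of them were called. Of 51 collagen, laminin and other matrix genes, 4 rose and 0 fell, with a median of 0.00. COL7A1, the anchoring fibril collagen, rose from 3.44 and 5.45 CPM to 13.8 and 12.7 CPM (log2 fold change 1.58, SE 0.36, adjusted p = 0.034), and COL16A1 and LAMA1 were also called. None of the 4 matrix genes was called with any 1 of the 4 samples left out. Of 32 growth factor and angiogenic ligand genes 1 rose, FGF18, and of 40 glycolysis and hypoxia genes 1 rose, STC2, with medians of -0.21 and -0.15. Both counts are near the 2.5% called higher over all tested genes. With 1 of the 4 samples left out, FGF18 was called in no case and STC2 only without C2 replicate 2 or treated replicate 2.

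DHRS2, a short-chain dehydrogenase, and S100P, a calcium-binding protein of epithelial tumours, were also among the 12 largest rises of genes with a symbol and at least 5 CPM. DHRS2 measured 1.67 and 1.91 CPM in C2 and 12.7 and 15.5 CPM after treatment (log2 fold change 2.97, SE 0.20, adjusted p = 1.61e-05). S100P measured 1.95 and 1.82 CPM in C2 and 7.92 and 8.54 CPM after treatment (log2 fold change 2.12, SE 0.25, adjusted p = 0.000937). Both stayed called with any 1 of the 4 samples left out.

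Several large groups held no call by edgeR in the reported fit, although other edgeR settings called a few members of some. The long noncoding RNA list below held 1 call, beside 2.5% called higher over all tested genes. Of 76 cytosolic ribosomal protein genes, 74 had a positive fold change and 59 lay above both C2 samples, against 3896 and 2254 of 12257 genes of at least 5 CPM, with a median of 0.27, but 0 had an unadjusted p below 0.05 and DESeq2 also called 0. RPS18 measured 1125 and 1476 CPM in C2 and 1760 and 1950 CPM after treatment (adjusted p = 0.394). The 15 mitochondrially encoded genes had a median of -0.34 with 0 unadjusted p below 0.05 and 0 calls by DESeq2. The 73 nuclear respiratory chain genes had a median of 0.05, with 1 unadjusted p below 0.05 and 0 calls by DESeq2. The 44 splicing factor genes had a median of -0.20 with 5 unadjusted p below 0.05, and DESeq2 called 2 of them lower. The 44 autophagy and lysosome genes had a median of -0.01 with 5 unadjusted p below 0.05, and DESeq2 called 1 higher, while the 8 metallothionein genes had a median of 0.19 with 0 by either measure. Of 29 long noncoding RNA genes 1 rose, H19, the imprinted transcript, from 0.147 and 0.147 CPM to 0.873 and 0.631 CPM, and it was not called without C2 replicate 1.

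**Figure D5:**
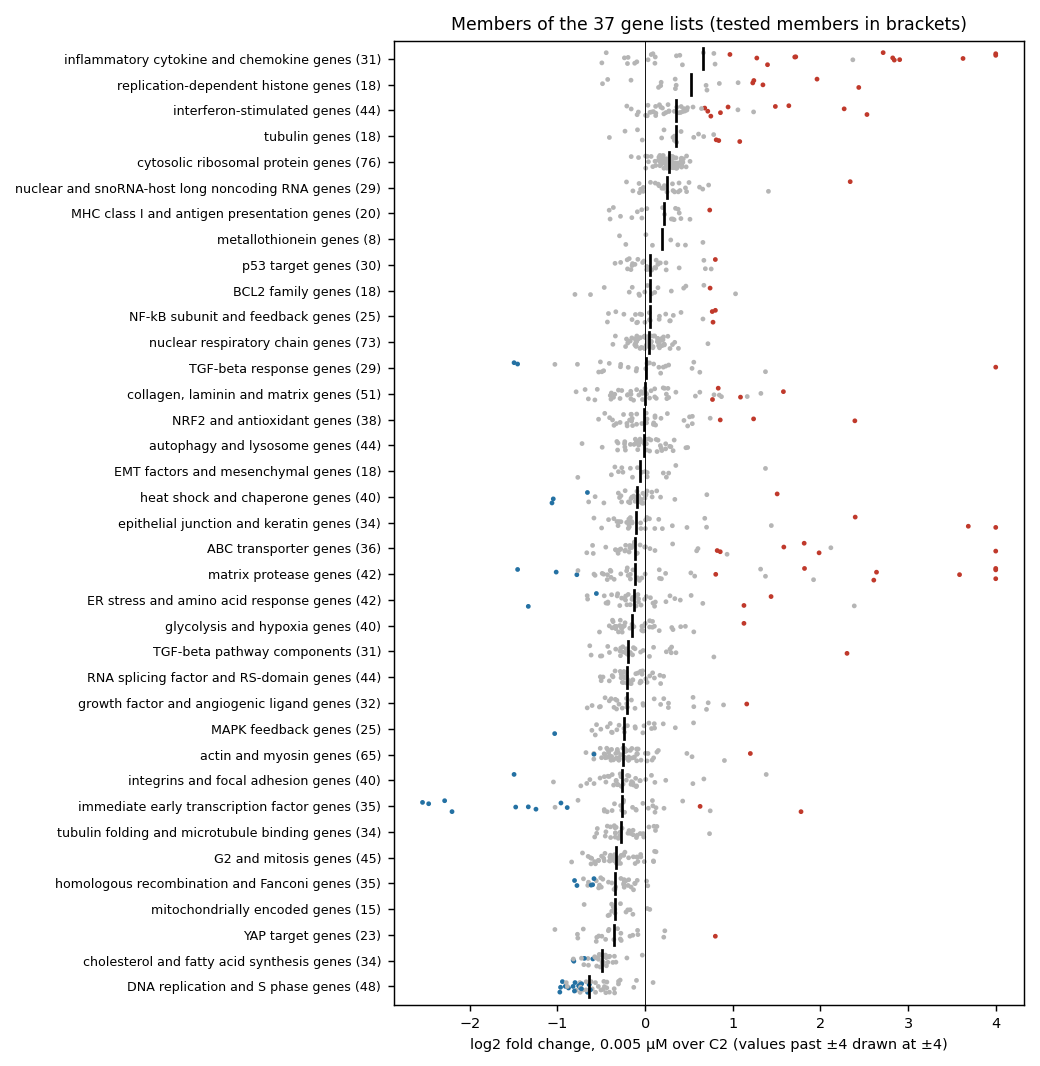
Log2 fold change in 0.005 µM over C2 of every tested member of the 37 gene lists (horizontal axis, values beyond 4 drawn at 4), ordered by the list median (black bars). Red points rose, blue points fell and grey points were not called, and the number of tested members stands in brackets. The medians run from -0.64 for DNA replication and S phase genes to 0.66 for inflammatory cytokine and chemokine genes.

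The 0.005 µM samples were also compared directly with the neighbouring doses, without the C2 samples as reference. Against 0.0005 µM, edgeR called 0 of 25249 genes (0.0%), with a smallest adjusted p of 0.413, although 2614 genes had an unadjusted p below 0.05, and DESeq2 also called 0. Against 0.05 µM, edgeR called 0 genes (0.0%), with a smallest adjusted p of 0.107 and 1569 unadjusted p below 0.05, while DESeq2 called 32, of which 13 were higher and 19 lower at 0.005 µM. The smallest adjusted p belonged to OASL, an oligoadenylate synthetase-like antiviral gene, which measured 63.0 and 62.2 CPM at 0.005 µM, 30.3 and 24.8 CPM at 0.05 µM and 97.8 and 97.2 CPM at 0.0005 µM. Its log2 difference from 0.05 µM was 1.18. MMP1 measured 285 and 305 CPM at 0.0005 µM and 113 and 90.5 CPM at 0.05 µM, so the 0.005 µM samples lay between the neighbours without overlap, at log2 differences of -0.61 (adjusted p = 0.478) and 0.92 (adjusted p = 0.798). H1-2 was ordered the other way, with 60.7 and 78.5 CPM at 0.0005 µM and 202 and 154 CPM at 0.05 µM (log2 differences of 0.42 and -0.93, adjusted p = 0.475 and 0.426). FOS was lower at 0.005 µM than at either neighbour, where it measured 83.3 and 74.6 CPM at 0.0005 µM and 87.2 and 89.0 CPM at 0.05 µM (log2 differences of -0.72 and -0.88, adjusted p = 0.413 and 0.304). The absence of calls does not show that the doses act alike, since differences of this size did not pass the test in this design.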

How the data were processed

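RNA from 12 samples was sequenced as paired-end reads, and the authors deposited whole-number counts per Ensembl gene identifier, not normalised. According to the submitters' processing notes, FastQC 0.11.9, Trimmomatic 0.39 and STAR 2.7.5 were used before counting. The strand setting is not given in the sources used here, so reads of overlapping antisense genes cannot be separated. The 12 columns of the joint table were identical to the single-sample files. Of 63568 identifiers, 43631 were paired with a symbol through the reference tables, and positions are those of GRCh37.

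The counts were filtered with filterByExpr, scaled by TMM and fitted with edgeR 4.0.16 (limma 3.58.1, R 4.3.3) as a robust quasi-likelihood model over the 6 conditions, with 6 residual degrees of freedom and a common biological coefficient of variation of 15.6%. Tests were two-sided and adjusted by the Benjamini-Hochberg method over all 25249 tested genes. DESeq2 1.42.0, a later version of the tool the study used and without the study's hypothesis weighting, was an alternative beside other scalings, filters, sample sets and offsets. The fit was tested on simulated data. Symbols in the reference were not found for some fixed members, mainly histones, and a few list members are not reported here. Precision is limited by counting error, by 2 samples a condition and by total counts of 38380629 to 79169121.

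The named genes were the 12 largest rises and 12 largest falls among called genes with a symbol, at least 5 CPM and no overlap, up to 4 members of each list with the smallest p, and 16 fixed genes. Where all called members of a list are named, the further ones were added after their values were seen, as were the chromosome 11 region and the promoter motifs. The comparison and the gene lists were chosen with earlier results of these data known. The deposited counts showed no correlation between same-numbered samples of the 2 groups (-0.05 over 12245 genes of at least 5 CPM, and between -0.60 and 0.68 over all pairs of conditions), so the numbers were not taken to pair samples. The drug was taken as given on day 2, as the labels state, although the study's methods name a later day for the imaging experiments, so the exposure time at collection is uncertain.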

Additional observations from a re-analysis of the deposited data

How the results depend on the processing

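The count of calls in 0.005 µM against C2 (827, 631 higher and 196 lower) was 838 with the scaling of DESeq2 in edgeR, 848 without robust estimation, 715 with symbols only and 896 with the replicate block. It was 1360 with DESeq2 (882 higher, 478 lower), 1909 with every gene of at least 1 count (1455, 454), 353 with a mean of at least 1 CPM (259, 94), 1566 with offsets for GC content and gene length (970, 596), 1762 with the replicate block and those offsets (1055, 707) and 2592 with the 4 samples alone (1277, 1315). The share of higher calls was thus 76.3% in the reported fit, 64.9% with DESeq2, 61.9% with the offsets, 59.9% with both and 49.3% with the 4 samples alone. Leaving out 1 sample gave 85 to 3316 calls, 80 to 1633 higher and 5 to 1714 lower. Of the 827 genes, 790 were called by DESeq2 and 706 with the offsets.

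Against 0.0005 µM the count (0) was 653 with every gene of at least 1 count (619 higher, 34 lower) and 2187 with the 4 samples alone (1597, 590), and 0 to 10 with 1 sample left out (0 higher and 0 to 10 lower). Against 0.05 µM the count (0) was 32 with DESeq2 (13, 19), 145 with every gene of at least 1 count (94, 51), 21 with the offsets (6, 15), 22 with the replicate block and the offsets (6, 16) and 348 with the 4 samples alone (31, 317). It was 0 to 110 with 1 sample left out (0 to 27 higher, 0 to 84 lower). With the 4 samples alone the spread rests on the fewest samples. The cause of the other shifts was not tested.

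Of the genes chosen by the naming rule only CDKN1A, which was not called, changed sign (genes added later were not all run). Its log2 fold change was 0.0648 when genes had to reach 1 CPM on average, 0.0027 with the offsets with and without the replicate block, and -0.1039 to 0.0377 with 1 sample left out, the highest without C2 replicate 1. Depth limits the genes below 1 CPM, where 90 called rises had at most 3 counts over both C2 samples.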

Other observations

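Complement and acute phase genes, which were singled out after their values were seen, were among the rises that rested on weak but replicated levels. Of 25 complement genes and regulators, 18 were tested, 8 rose and 1 fell, and the median log2 fold change was 0.97. C3, the central complement component, measured 0.344 and 0.626 CPM in C2 and 5.00 and 5.51 CPM after treatment (log2 fold change 3.45). C1S, a protease of the classical pathway, measured 1.24 and 1.69 CPM in C2 and 7.67 and 7.30 CPM after treatment (log2 fold change 2.35), and its partner C1R measured 4.63 and 4.23 CPM in C2 and 8.97 and 9.25 CPM after treatment. C2 (the complement gene), CFB and the near-identical C4A and C4B also rose, and C9 had 0 and 3 counts in the untreated samples and 27 and 29 after treatment (ratio 13.0, 95% exact counting interval 4.23 to 65.0). C5 fell from 7.32 and 6.05 CPM to 3.89 and 3.62 CPM, and the membrane regulator CD59 measured 818 and 726 CPM in C2 and 759 and 778 CPM after treatment. With any 1 of the 4 samples of the comparison left out, C3 and C1S stayed called, and each of the other complement calls, including the fall of C5, was lost in at least 1 of these fits. The acute phase gene SAA1 measured 1.03 and 1.09 CPM in C2 and 5.88 and 6.24 CPM after treatment.

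TXNIP, an inhibitor of thioredoxin and of glucose uptake, measured 154 and 145 CPM in C2 and 344 and 363 CPM after treatment (log2 fold change 1.24). Of the 5 tested genes of TXNIP and the ARRDC arrestin-domain family, to which it belongs, 3 rose. The others were ARRDC4, from 9.41 and 8.76 CPM to 18.2 and 18.8 CPM, and ARRDC3, from 54.4 and 47.2 CPM to 82.8 and 87.5 CPM. ARRDC2 measured 44.7 and 37.6 CPM in C2 and 40.9 and 41.5 CPM after treatment. Of the 3, ARRDC4 stayed called with any 1 of the 4 samples left out. These genes too were singled out after their values were seen.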
